A study of Mus musculus with 74 samples.

Results

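Rb1 (gene ID 19645 in the RefSeq annotation) was 1 of 17 genes targeted in mouse lung tumours with lentiviruses that each carry 2 CRISPR guides, a barcode and Cre. Every tumour whose virus named Rb1 in either guide place was taken, leaving out viruses with the same guide in both places and those with a spike-in or the guide named NE. This gave 42127 Rb1 tumours of 378754 tumours in all, and of 342937 that remain after the same removals over the whole table. They comprised 14371 tumours in H11-Cas9 mice, 5474 in H11-LSL-Cas9 mice and 22282 in KT mice. Of them 5011 carried Rb1 beside an inert guide (safe, NT or EGFP), 707 carried both Rb1 guides, Rb1_V1 and Rb1_V2, and 4737 carried Rb1 and p53. Tumours with 2 different inert guides, called inert/inert, numbered 2973 and were the control within each mouse.

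The study compared 3 groups of mice, all on the same background that the labels call KT, which includes the R26LSL-Tomato reporter and in which Cre starts the tumours. The 45 H11-Cas9 mice were KT mice whose per-mouse genotype names an H11-Cas9 allele, the 20 H11-LSL-Cas9 mice carried a Cas9 allele behind a lox-stop-lox cassette, and the 9 KT mice carried no Cas9, so that guides cannot cut there. The growth protocol gives the Cas9 mice in another spelling, H11_LSL-Cas9 and H11LSL-Cas9, and the per-mouse genotype was used. All lungs were taken about 3 months after the viral pool was given, and 1 amplicon spanning the barcode and both guides was sequenced per mouse, starting with 32 µg of lung DNA. The tumours are known only by their barcodes: viral dose, histology and editing at the Rb1 locus were not analysed here.

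Rb1 encodes the retinoblastoma protein, which binds E2F transcription factors and holds back entry into S phase until cyclin D kinases phosphorylate it. p53, encoded by Trp53 (gene ID 22059), halts or kills cells after DNA damage or oncogene signals. Loss of both together is typical of small-cell lung cancer in patients and in mice, while lung adenocarcinoma more often keeps RB1. Of a list of 10 genes of the RB pathway, Rb1 and Pcna, an E2F target and the sliding clamp of DNA polymerase, were the 2 in the library. Guide sequences were not analysed here.

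Of the tumours that remain after the same removals, Rb1 tumours made up 13.3% in H11-Cas9 mice, 12.04% in H11-LSL-Cas9 mice and 11.8% in KT mice. A mouse held 120 to 642 Rb1 tumours (median 306) among H11-Cas9 mice, a median of 301 among H11-LSL-Cas9 mice, of which 2 had fewer than 20 tumours in all, and 1434 to 4379 (median 2129) among KT mice. Libraries held 118601 to 6256147 reads in H11-Cas9 mice, 37 to 1161475 in H11-LSL-Cas9 mice and 1434013 to 11183386 in KT mice. The median Rb1 tumour rested on 27 reads in H11-Cas9 mice, 13 reads in H11-LSL-Cas9 mice and 65 reads in KT mice. The smallest tumour listed in a mouse had 50.1 to 105 cells in the H11-Cas9 group, 50.4 to 369 cells in the H11-LSL-Cas9 group and 50.4 to 56.2 cells in the KT group, and smaller tumours cannot be seen. Cell numbers were set by the authors with spike-in cells whose total was near 100000 in 25 H11-Cas9 and 5 KT mice and near 300000 in 20 H11-Cas9, 20 H11-LSL-Cas9 and 4 KT mice. The spike-in total was treated as a batch.

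Beside an inert guide, Rb1 tumours in H11-Cas9 mice were slightly larger than inert/inert tumours. The geometric mean size of Rb1 tumours was 109 cells in the lowest H11-Cas9 mouse, 201 cells in the median mouse and 693 cells in the highest, against 108, 180 and 394 cells for inert/inert tumours of the same mice. The ranges overlapped almost wholly, so the comparison was made inside each mouse, as the mean log2 size of Rb1 tumours minus that of inert/inert tumours. This difference was 0.15 ± 0.05 (SE, n = 45 mice), a 1.11-fold size, and lay above 0 in 32 of 45 mice (sign-flip permutation over mice, 2-sided, adjusted p = 0.00678 over the 17 genes). The same test called 64.7% of the 17 genes larger, so a gain was called for most genes of the library.

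The gain of Rb1 beside inert was called in 1 of the 2 spike-in batches. It was 0.25 ± 0.06 in the 25 H11-Cas9 mice of the lower spike-in total (permutation, adjusted p = 0.0017) and 0.04 ± 0.07 in the 20 mice of the higher (adjusted p = 0.711). A permutation test of that difference between the totals gave p = 0.031 and an adjusted p of 0.155. Set against the same difference in KT mice, which lack Cas9, the excess in H11-Cas9 mice was 0.14 ± 0.07 and did not pass (permutation of mice, adjusted p = 0.159). With the median size of each mouse, the gain over inert/inert was 0.05 (adjusted p = 0.633), and with the safe guides alone as inert it was 0.10 (adjusted p = 0.28).

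In H11-LSL-Cas9 mice no size difference of Rb1 beside inert was detected. Rb1 tumours had 125, 187 and 779 cells in the lowest, median and highest of 18 H11-LSL-Cas9 mice, against 121, 184 and 423 cells for inert/inert tumours in 17 mice. The difference within mice was -0.05 ± 0.11 (SE, n = 17 mice that held 5 or more tumours of both kinds, 8 above 0, permutation, adjusted p = 0.842). In KT mice Rb1 tumours had 212, 343 and 528 cells, against 204, 270 and 576 cells for inert/inert tumours, and the difference was 0.01 ± 0.05 (SE, n = 9, 4 above 0, exact sign-flip test, adjusted p = 0.946). The difference between H11-LSL-Cas9 and H11-Cas9 mice was -0.20 ± 0.12 and did not pass (permutation, adjusted p = 0.183).

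Viruses with both Rb1 guides gave tumours of 86.5, 209 and 611 cells in the lowest, median and highest of 29 H11-Cas9 mice. Their size was 0.21 ± 0.14 above inert/inert (16 of 29 mice above, permutation, adjusted p = 0.183) and 0.05 ± 0.14 above Rb1 beside inert (adjusted p = 0.811). No gain from a second Rb1 guide was detected. The same comparison with inert/inert was -0.10 ± 0.19 in 10 H11-LSL-Cas9 mice and -0.16 ± 0.10 in 9 KT mice, with adjusted p of 0.711 and 0.723 (exact test in KT).

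**Figure D1:**
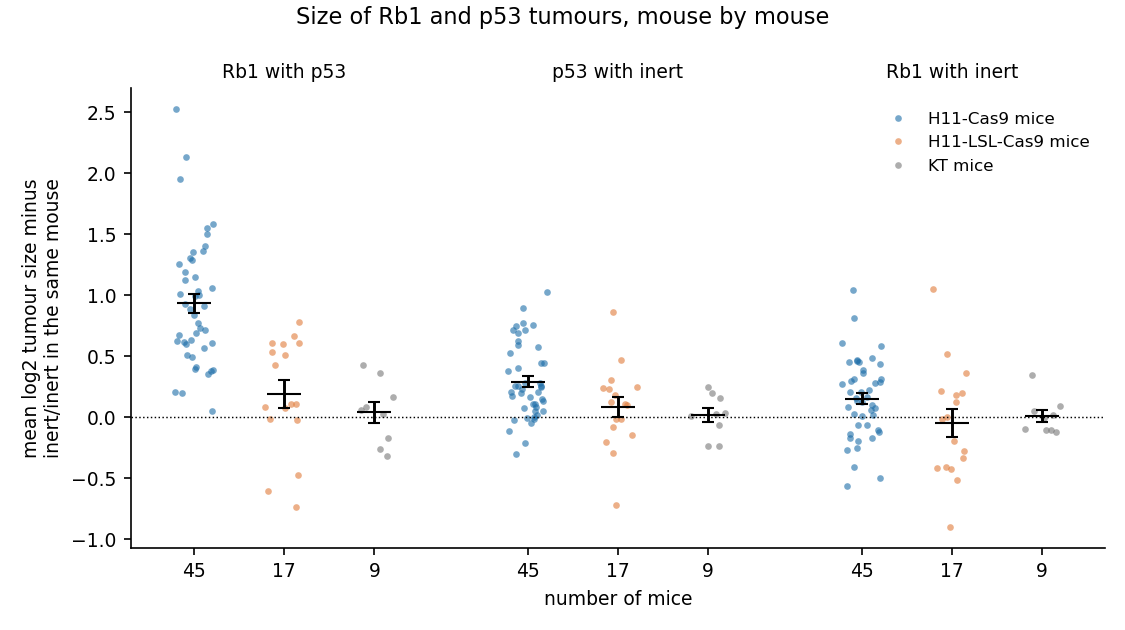
Mean log2 tumour size minus that of inert/inert tumours in the same mouse, for Rb1 with p53, p53 with inert and Rb1 with inert, with 1 point per mouse and the mean ± SE in black. The numbers of mice stand below each column, and Rb1 with p53 lies above 0 in 45 of 45 H11-Cas9 mice.

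In H11-Cas9 mice the pair of Rb1 with p53 had the highest size effect of the 13 Rb1 pairs tested. p53/Rb1 tumours had a geometric mean of 172 cells in the lowest H11-Cas9 mouse, 333 in the median mouse and 1183.5 in the highest. p53 beside inert had 134, 225 and 607 cells, Rb1 beside inert 109, 201 and 693 cells, and inert/inert 108, 180 and 394 cells. Within mice p53/Rb1 was 0.93 ± 0.08 above inert/inert, a 1.91-fold size, in 45 of 45 mice (permutation, adjusted p = 4.84e-05, from 1e-05, the smallest p they can give). Adding Rb1 to p53 raised size by 0.64 ± 0.07, in 42 of 45 mice (adjusted p = 0.0006). Adding p53 to Rb1 raised it by 0.78 ± 0.07, in 45 of 45 mice (adjusted p = 0.0006).

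The 90th percentile of p53/Rb1 size lay further from that of inert/inert than the mean did. It was 2.32 ± 0.20 above on the log2 scale, a 4.99-fold size, while Rb1 beside inert was 0.33 ± 0.12 above, a 1.25-fold size. After the same removals, 2283 tumours in H11-Cas9 mice had over 10000 cells. Of these, 117 (5.12%) were p53/Rb1, against 1.89% of tumours of all sizes. Over 100000 cells they were 13 of 565 (2.30%). Over 10000 cells were 28 of the 1875 tumours with Rb1 beside inert, 29 of the 3487 with p53 beside inert and 0 of the 1107 inert/inert tumours, pooled over mice. In KT mice 2 of 358 tumours over 10000 cells were p53/Rb1 (0.559%, against 1.07% of all sizes). p53/Rb1 tumours made up 0.306% to 14.2% of tumour cells in an H11-Cas9 mouse (median 1.67%) and 1.37% to 2.50% of its tumours (median 1.82%), so that in most mice the share of cells was not above the share of tumours: it was above in 17 of 45.

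In the other groups p53/Rb1 stood nearer to inert/inert. p53/Rb1 tumours had 127, 212 and 574 cells in the lowest, median and highest of 18 H11-LSL-Cas9 mice, and were 0.19 ± 0.11 above inert/inert (12 of 17 mice above, permutation, adjusted p = 0.324). In KT mice they had 209, 321 and 480 cells and were 0.04 ± 0.09 above inert/inert (6 of 9 mice above, exact sign-flip test, adjusted p = 0.917). H11-LSL-Cas9 mice lay 0.74 ± 0.14 below H11-Cas9 mice (permutation, adjusted p = 0.00085), and 0.76 ± 0.15 below the 20 H11-Cas9 mice of the same spike-in total (adjusted p = 0.00156). The steps differed too, by -0.54 ± 0.12 for Rb1 added to p53 (adjusted p = 0.00902) and by -0.55 ± 0.11 for p53 added to Rb1 (adjusted p = 0.00328). H11-LSL-Cas9 and H11-Cas9 mice share no mouse-name letters in the labels, so that the Cas9 allele and what those letters mark cannot be told apart.

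The size of p53/Rb1 tumours depended on which Rb1 guide was used and where it stood on the virus. Each virus holds a guide in place 1 and a guide in place 2, so 2 guides of each gene give 8 p53/Rb1 viruses. Their single values, given without a test, use every mouse with at least 1 tumour of the virus and 5 inert/inert tumours, since most mice held few tumours of 1 virus. In H11-Cas9 mice the virus with p53_V1 in place 1 and Rb1_V1 in place 2 gave tumours 1.75 ± 0.17 above inert/inert (369 tumours in 45 mice, a 3.35-fold size). With p53_V2 in place 1 and Rb1_V1 in place 2 the value was 1.78 ± 0.17 (400 tumours in 45 mice, a 3.44-fold size). Both p53 guides thus gave near-equal values in that arrangement.

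The other 6 p53/Rb1 viruses lay far lower. With Rb1_V1 in place 1 the values were 0.51 ± 0.28 beside p53_V1 (94 tumours in 39 mice) and 0.65 ± 0.17 beside p53_V2 (144 tumours in 42 mice). With Rb1_V2 in place 2 they were 0.61 ± 0.12 after p53_V1 and 0.25 ± 0.11 after p53_V2. With Rb1_V2 in place 1 they were 0.42 ± 0.13 before p53_V1 and 0.44 ± 0.14 before p53_V2. The highest of these 6 values lay more than 1 log2 unit below both viruses with p53 in place 1 and Rb1_V1 in place 2, a gap larger than the standard errors. Tumours over 1000 cells were 34.7% and 35.8% of the tumours of those 2 viruses, and 10.9% to 18.1% in the other 6.

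In H11-LSL-Cas9 mice the same pair of viruses was the highest, at 0.56 ± 0.27 with p53_V1 and 0.67 ± 0.27 with p53_V2, against -0.28 to 0.36 for the other 6. The value of 0.36 was for Rb1_V1 before p53_V1 and had an SE of 0.40 (49 tumours in 14 mice). It overlapped both higher values within the errors. In KT mice these viruses lay at -0.10 ± 0.13 and -0.06 ± 0.12, the lowest of the 8, and the other 6 ran between -0.04 and 0.27. The order of viruses in H11-Cas9 mice was therefore not that of the mice without Cas9.

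**Figure D2:**
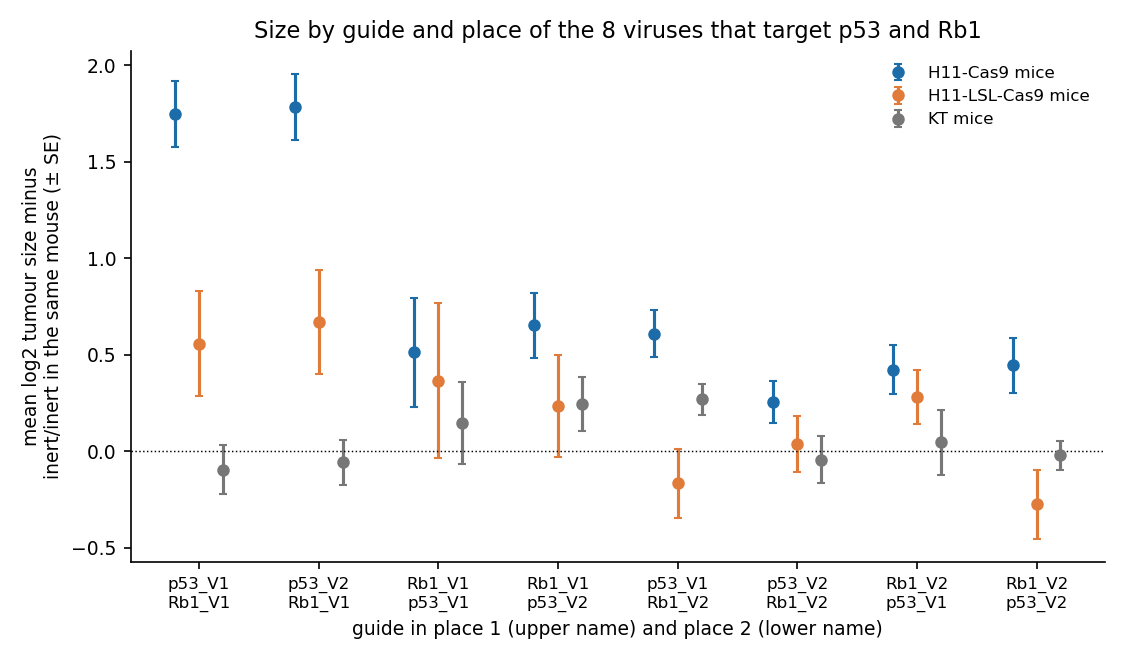
Mean log2 tumour size minus inert/inert in the same mouse (± SE over mice) for each of the 8 p53/Rb1 viruses in the 3 groups of mice, named by the guide in place 1 above that in place 2. The viruses with p53 in place 1 and Rb1_V1 in place 2 stand at 1.75 and 1.78 in H11-Cas9 mice, and the other 6 between 0.25 and 0.65.

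Summed over both p53 guides, tumours with p53 in place 1 and Rb1_V1 in place 2 were 1.73 ± 0.13 above inert/inert in H11-Cas9 mice, and above it in 44 of 44 mice, with a lowest value of 0.18, a median of 1.72 and a highest of 4.15. They lay at 1.70 ± 0.20 in the 24 mice of the lower spike-in total and at 1.77 ± 0.16 in the 20 of the higher. The mice whose names begin with LA gave 1.71 ± 0.15 (n = 38) and those with CM gave 1.88 ± 0.32 (n = 6). In H11-LSL-Cas9 mice the value was 0.68 ± 0.17 (13 of 15 mice above), with 0.67 ± 0.24 in 10 HC mice and 0.69 ± 0.17 in 5 MT mice. In KT mice it was -0.08 ± 0.10 (3 of 9 above). All other p53/Rb1 viruses together lay at 0.45 ± 0.06 in H11-Cas9 mice, 0.05 ± 0.11 in H11-LSL-Cas9 mice and 0.09 ± 0.09 in KT mice.

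Beside p53, tumours with Rb1_V1 were 1.09 ± 0.10 larger than those with Rb1_V2, in 42 of 45 H11-Cas9 mice (permutation, adjusted p = 0.00096 over 96 guide differences, of which 4.17% were called in this direction). Both places of Rb1 were pooled here, in unequal shares. With Rb1 in place 1 the single viruses lay closer, at 0.51 and 0.65 for Rb1_V1 and 0.42 and 0.44 for Rb1_V2. The guide difference was itself larger with Rb1 in place 2 than in place 1, by 1.35 ± 0.27 (22 of 26 mice, adjusted p = 0.002), the 1 call among 50 such tests (2% called). Viruses with Rb1 first and p53 second gave tumours 0.71 ± 0.10 smaller than those with p53 first, being larger in 7 of 43 mice (permutation, adjusted p = 0.00053, 5.66% of 53 tests called in this direction). This contrast pooled both Rb1 guides in unequal shares. With Rb1 first, 238 tumours carried Rb1_V1 and 482 Rb1_V2, and with p53 first 769 and 556. For Rb1_V2 the single viruses lay at 0.42 and 0.44 with Rb1 first and at 0.61 and 0.25 with p53 first. Order was not tested for each Rb1 guide apart. In H11-LSL-Cas9 mice Rb1_V1 was 0.40 ± 0.13 above Rb1_V2 beside p53 in 14 of 17 mice (permutation, p = 0.00701, adjusted p = 0.168), and in KT mice -0.03 ± 0.06 (3 of 9 mice, exact test, adjusted p = 0.887).

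Beside other genes the Rb1 guides were not detected to differ. Beside inert guides Rb1_V1 was 0.09 ± 0.07 above Rb1_V2 in H11-Cas9 mice (24 of 45 mice, permutation, adjusted p = 0.531), and the place of Rb1 made a difference of 0.06 ± 0.06 (place 1 minus place 2, adjusted p = 0.812). For the 7 other partners that could be tested the guide difference ran from -0.05 ± 0.19 beside Apc to 0.43 ± 0.20 beside Lkb1, and none passed (adjusted p of 0.302 beside Lkb1). Rb1_V1 in place 2 beside inert was 0.14 ± 0.09 above inert/inert in the 41 mice with at least 5 such tumours (permutation, adjusted p = 0.247), and 0.18 ± 0.11 over all 45 mice with at least 1. KT mice, where guides cannot cut, held 3596 Rb1 tumours with Rb1_V1 in place 1, 6476 with Rb1_V1 in place 2, 6858 with Rb1_V2 in place 1 and 5705 with Rb1_V2 in place 2.

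**Figure D3:**
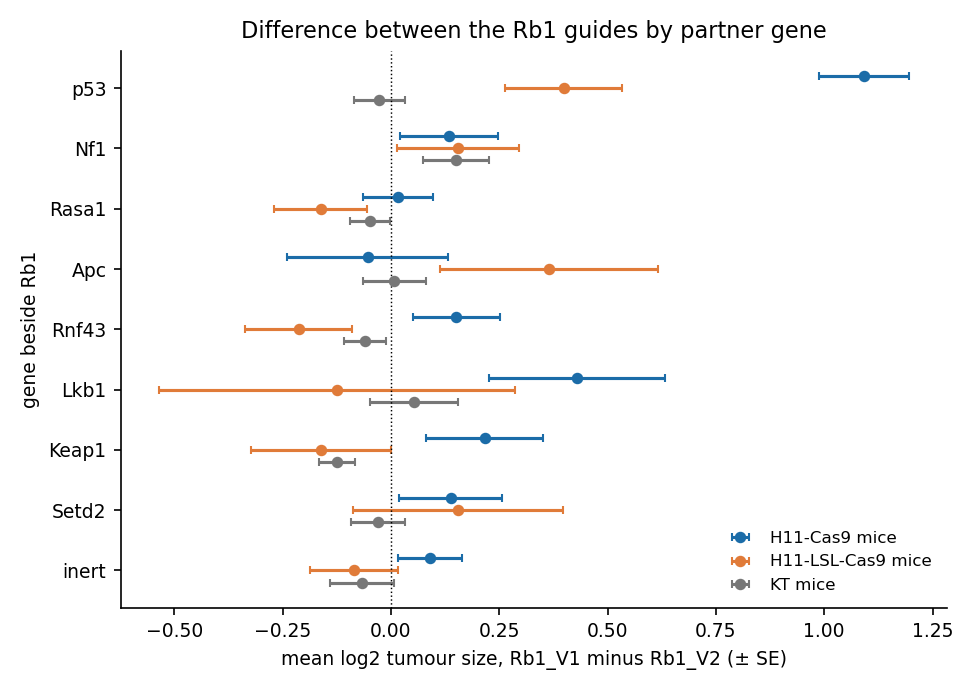
Mean log2 tumour size with Rb1_V1 minus that with Rb1_V2 in the same mouse (± SE over mice), by the gene beside Rb1, in the 3 groups of mice. Beside p53 the difference is 1.09 in H11-Cas9 mice and 0.40 in H11-LSL-Cas9 mice, and beside inert guides it is 0.09 in H11-Cas9 mice. Both places of Rb1 are pooled.

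The interaction subtracts both single effects from that of the pair in the same mouse, and it was positive for p53 with Rb1 at 0.49 ± 0.09 (36 of 45 H11-Cas9 mice, permutation, adjusted p = 0.00044). Of all 88 interactions tested 1.14% were called above 0. With the median size of each mouse in place of the mean log2 size it was 0.29 and did not pass (adjusted p = 0.172). By guide and place of Rb1, it was 1.23 ± 0.16 for Rb1_V1 in place 2 (35 of 40 mice, permutation, adjusted p = 0.00121), the highest of 364 such values, of which 0.824% were called above 0. It was 0.15 ± 0.19 for Rb1_V1 in place 1, 0.06 ± 0.12 for Rb1_V2 in place 1 and -0.12 ± 0.12 for Rb1_V2 in place 2, and none of these passed (adjusted p from 0.644 to 0.827). Without p53 in place 1 and Rb1_V1 in place 2, left out because it was known to be the highest, p53/Rb1 tumours still exceeded inert/inert by 0.45 ± 0.06 in 36 of 45 mice (adjusted p = 4.84e-05). Rb1 added to p53 then gave 0.16 ± 0.05 (27 of 45 mice, adjusted p = 0.0449) and the interaction was 0.00 ± 0.07 (adjusted p = 0.983). The pooled interaction was 0.31 ± 0.13 in the 25 mice of the lower spike-in total (adjusted p = 0.0664) and 0.71 ± 0.10 in the 20 of the higher (adjusted p = 0.00089), and the difference between the totals had p = 0.0164 and an adjusted p of 0.291. It was 0.16 ± 0.14 in H11-LSL-Cas9 mice and 0.02 ± 0.05 in KT mice, neither of which passed, and the difference of -0.33 ± 0.17 between H11-LSL-Cas9 and H11-Cas9 mice did not pass (adjusted p = 0.241).

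Beside the other partner genes no change in tumour size from adding Rb1 was detected. In H11-Cas9 mice 13 Rb1 pairs had enough tumours to be tested, and 5 were larger than inert/inert: those with p53, Nf1, Rasa1, Apc and Kmt2a. Over all 92 pairs tested 42.4% were called larger. The median effect of the 13 was 0.34, against 0.21 over all pairs. The 5 calls became 2 with the median size, 1 with tumours of at least 500 cells and 8 with same-guide inert viruses kept. Against KT mice 3 of the 5 pairs passed, with p53, Nf1 and Apc (25% of all pairs called). Adding Rb1 to the partner was called as an increase beside p53 and beside none of the other 11 partners tested, and as a decrease beside 0 of 12. These steps had a median of 0.04 and ran from -0.14 for Kmt2b to 0.64 for p53, with 1 at an unadjusted p under 0.05 (sign-flip permutation). Over all 180 steps tested 11.1% were called as an increase and 5.56% as a decrease.

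Nf1 and Rasa1 are both GTPase-activating proteins. Nf1/Rb1 tumours were 0.39 ± 0.07 above inert/inert (37 of 45 H11-Cas9 mice, permutation, adjusted p = 4.84e-05), and Nf1 beside inert was at 0.43 ± 0.06. Adding Rb1 to Nf1 gave -0.04 ± 0.05 (adjusted p = 0.72), while adding Nf1 to Rb1 raised size by 0.23 ± 0.05 (35 of 45 mice, adjusted p = 0.00072). Rasa1/Rb1 tumours were 0.27 ± 0.05 above inert/inert (36 of 45 mice, adjusted p = 4.84e-05), against 0.25 ± 0.04 for Rasa1 beside inert. Here neither step passed, with 0.02 ± 0.05 for Rb1 added and 0.12 ± 0.05 for Rasa1 added (adjusted p = 0.889 and 0.106).

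Apc and Rnf43 hold back WNT signalling, Apc in the complex that degrades beta-catenin and Rnf43 as a ubiquitin ligase that removes Frizzled receptors. Apc/Rb1 tumours were 0.34 ± 0.12 above inert/inert (26 of 43 mice, permutation, adjusted p = 0.0134), against 0.16 ± 0.07 for Apc beside inert, and the step for Rb1 added, 0.17 ± 0.09, did not pass (adjusted p = 0.224). Rnf43/Rb1 tumours lay at 0.09 ± 0.06 (adjusted p = 0.272), with a step for Rb1 of -0.06 ± 0.05 (adjusted p = 0.502).

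Lkb1 (Stk11, gene ID 20869) is the kinase that activates AMPK and related kinases, and Keap1 targets the oxidative stress factor NRF2 for degradation. Lkb1/Rb1 tumours lay at 0.38 ± 0.17 in 42 H11-Cas9 mice (permutation, adjusted p = 0.0631) and Keap1/Rb1 tumours at -0.03 ± 0.07 in 44 (adjusted p = 0.711). Adding Rb1 gave 0.09 ± 0.14 beside Lkb1 and -0.05 ± 0.08 beside Keap1, neither of which passed (adjusted p = 0.744 and 0.74).

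Of the chromatin genes, Setd2, a histone methyltransferase that marks transcribed gene bodies, gave 0.16 ± 0.09 with Rb1 (permutation, adjusted p = 0.136). Kmt2a, a histone methyltransferase that acts at promoters, gave 0.42 ± 0.16 in 25 mice (17 above, permutation, adjusted p = 0.0211), and its step for Rb1 was 0.29 ± 0.15 (adjusted p = 0.193). Its relative Kmt2b gave -0.17 ± 0.39 and the acetyltransferase Kat7 0.44 ± 0.29, each in 6 mice (exact sign-flip tests, adjusted p = 0.727 and 0.236), where 6 mice allow no p below 0.0312. The splicing-associated cyclins Ccnl1 and Ccnl2 gave 0.37 ± 0.20 in 13 mice and 0.16 ± 0.12 in 30 mice (adjusted p = 0.139 and 0.251). Meaf6, a subunit of KAT7 and related complexes, and Pcna left too few Rb1 tumours in H11-Cas9 mice for a size test.

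**Figure D4:**
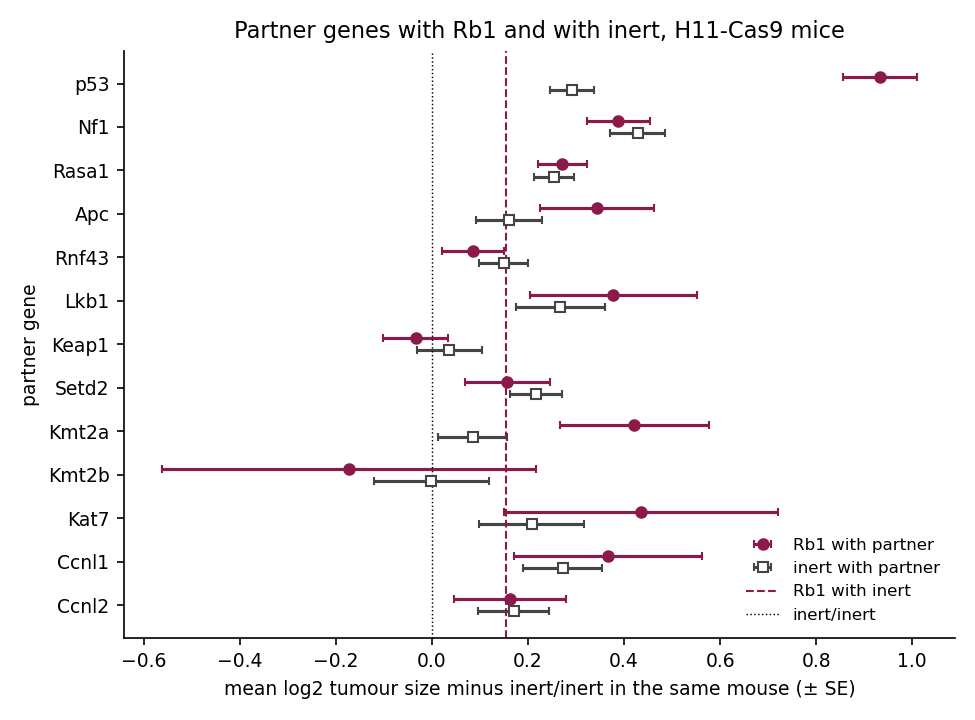
Mean log2 tumour size minus inert/inert in the same mouse (± SE over mice) for Rb1 with each partner gene and for the partner beside an inert guide, in H11-Cas9 mice. The dashed line marks Rb1 with inert at 0.15, and p53 is the partner beside which the step for Rb1 was called (0.93 with Rb1, 0.29 with inert). The Kmt2a pair (0.42) also stands above Kmt2a with inert (0.08), with a step that did not pass.

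Besides p53, 3 of the 12 interactions tested in H11-Cas9 mice passed, all below 0: Nf1 at -0.19 ± 0.07 (permutation, adjusted p = 0.0339), Rnf43 at -0.22 ± 0.07 (adjusted p = 0.0105) and Setd2 at -0.21 ± 0.08 (adjusted p = 0.0458). Over all 88 interactions 27.3% were called below 0 and the median was -0.21, so these 3 lay near the middle of the library. The 4 calls, p53 included, became 0 with the median size or with tumours of at least 500 cells, 2 with tumours of at least 200 cells and 1 with safe guides alone as inert. Measured against KT mice, the only one of the 4 Rb1 interactions that passed was p53 (0.47 ± 0.10, permutation, adjusted p = 0.0255).

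In H11-LSL-Cas9 mice 0 of 11 Rb1 pairs were called larger than inert/inert, by sign-flip permutation and with 0 at an unadjusted p under 0.05, where 3.33% of all 90 pairs were. With tumours of at least 200 cells 4 Rb1 pairs were called, and with at least 10 tumours of a kind 1 was. Their effects ran from -0.06 for Keap1 to 0.29 for Kmt2a, with a median of 0.07. Among 10 interactions there the nearest to the threshold was Lkb1 at 0.35 ± 0.16 (12 of 17 mice, permutation, p = 0.0488, adjusted p = 0.849). In KT mice 0 of 15 pairs passed by the exact sign-flip test, with 1 at an unadjusted p under 0.05 and a range from -0.08 for Nf1 to 0.20 for Kmt2b. The smallest p that 9 mice allow is 0.00391, so 1 pair alone could not pass after adjustment over the 128 KT pairs, nor 1 gene alone over the 17 genes.

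By the pattern of size effects over partners, the genes most like Rb1 in H11-Cas9 mice were Nf1 (Pearson r = 0.57 over 13 shared partners) and Rasa1 (r = 0.55 over 13). p53 (r = 0.50 over 13) and Rnf43 (r = 0.45 over 13) lay close below. These correlations share mice and inert/inert tumours and are given as a description.

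The number of tumours of a kind was counted relative to inert/inert tumours in the same mouse and compared between Cas9 and KT mice, which takes out the share of each virus in the pool. Beside an inert guide, Rb1 tumours numbered 1.06, 1.65 and 4.82 per inert/inert tumour in the lowest, median and highest of 45 H11-Cas9 mice, 0.886, 1.46 and 2.79 in 17 H11-LSL-Cas9 mice, and 1.60, 1.74 and 1.89 in 9 KT mice. The groups overlapped, with a far wider spread in Cas9 mice. On the log2 scale, with 0.5 added to both numbers, the change was -0.05 ± 0.07 in H11-Cas9 mice (permutation of mice, adjusted p = 0.44) and -0.24 ± 0.11 in H11-LSL-Cas9 mice (p = 0.0333, adjusted p = 0.081). With tumours of at least 200 cells the value in H11-LSL-Cas9 mice was -0.61 and passed (adjusted p = 0.0103). Counted relative to all tumours of a mouse instead, the value in H11-Cas9 mice was 0.37 (permutation, adjusted p = 1.89e-05). By that count inert/inert tumours also had a larger share with Cas9, at 1107 of 108080 tumours in H11-Cas9 mice and 1466 of 189387 in KT mice. The direction thus depends on the denominator, and 0.37 is not a gain over inert viruses.

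p53/Rb1 tumours numbered 0.949, 1.86 and 7.55 per inert/inert tumour in the lowest, median and highest H11-Cas9 mouse, 0.714, 1.66 and 2.74 in H11-LSL-Cas9 mice, and 1.19, 1.38 and 1.57 in KT mice. They were more numerous by 0.40 ± 0.08 in H11-Cas9 than in KT mice (permutation, adjusted p = 7.03e-05), a 1.32-fold change, and by 0.24 ± 0.13 in H11-LSL-Cas9 mice, which did not pass (adjusted p = 0.173). Adding Rb1 to p53 raised number by 0.18 ± 0.05 (permutation, adjusted p = 0.0227, where 22.8% of 272 steps were called as an increase). The interaction in number was 0.23 ± 0.09 (p = 0.0194, adjusted p = 0.115), and 0 of 15 Rb1 interactions in number passed, where 11.8% of all pairs were called above 0. By arrangement, tumours with p53 in place 1 and Rb1_V1 in place 2 had a mean log2 number of -0.56 ± 0.62 in H11-Cas9 mice against -1.32 ± 0.20 in KT mice (SD, n = 45 and 9), and those with Rb1_V1 in place 1 had -2.23 ± 0.85 against -2.13 ± 0.17. With Rb1_V2 in place 2 the values were -0.97 ± 0.48 in H11-Cas9 mice against -1.49 ± 0.23 in KT mice, and with Rb1_V2 in place 1 they were -1.19 ± 0.58 against -1.29 ± 0.16. In H11-Cas9 mice the number with Rb1 in place 2 was thus above that in KT mice for both Rb1 guides, with no test made.

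Nf1/Rb1 and Rasa1/Rb1 tumours were also more numerous in H11-Cas9 than in KT mice, by 0.25 ± 0.09 and 0.19 ± 0.08 (permutation, adjusted p = 0.0119 and 0.0386). These 3 of 15 Rb1 pairs stand beside 14% of all 136 pairs called in that direction. Beside inert the partners rose too, by 0.41 ± 0.07 for Nf1, 0.20 ± 0.06 for Rasa1 and 0.22 ± 0.06 for p53 (permutation, adjusted p = 5.67e-05, 0.00744 and 0.00527). Adding Rb1 to Rasa1 gave -0.01 ± 0.06 (adjusted p = 0.878). Adding Rb1 to Nf1 lowered number by 0.16 ± 0.06 (adjusted p = 0.0392), the 1 decrease among 15 steps of Rb1, where 33.8% of all steps were called as a decrease.

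In H11-Cas9 mice 8 of 15 Rb1 pairs fell in number, a share near the 56.6% of all pairs called, and relative to all tumours of a mouse 4 did. The pair with Pcna, an essential replication gene, fell by 4.404 on the log2 scale ± 0.19, with 60 tumours in 45 H11-Cas9 mice and 1701 in 9 KT mice. Kmt2b fell by 1.41 ± 0.17, Lkb1 by 1.28 ± 0.11 and Keap1 by 1.07 ± 0.08, each with an adjusted p of 2.67e-05 (permutation). Meaf6, Apc, Setd2 and Kat7 fell by 0.45 to 0.58. Of these 15 pairs, the one with Nf1 was the only one called lower in number than its partner beside inert. In H11-LSL-Cas9 mice 5 of 15 pairs fell, with Pcna (-1.69 ± 0.12), Ccnl1 (-0.94 ± 0.31), Kmt2b (-0.68 ± 0.24), Keap1 (-0.51 ± 0.10) and Lkb1 (-0.49 ± 0.12), where 27.9% of all pairs were called. The pairs with Ccnl1 and Kmt2b rested on 43 and 49 tumours in 17 of these mice. In H11-Cas9 mice the pair with Ccnl1 was at -0.34 ± 0.19 and did not pass (permutation, adjusted p = 0.107).

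**Figure D5:**
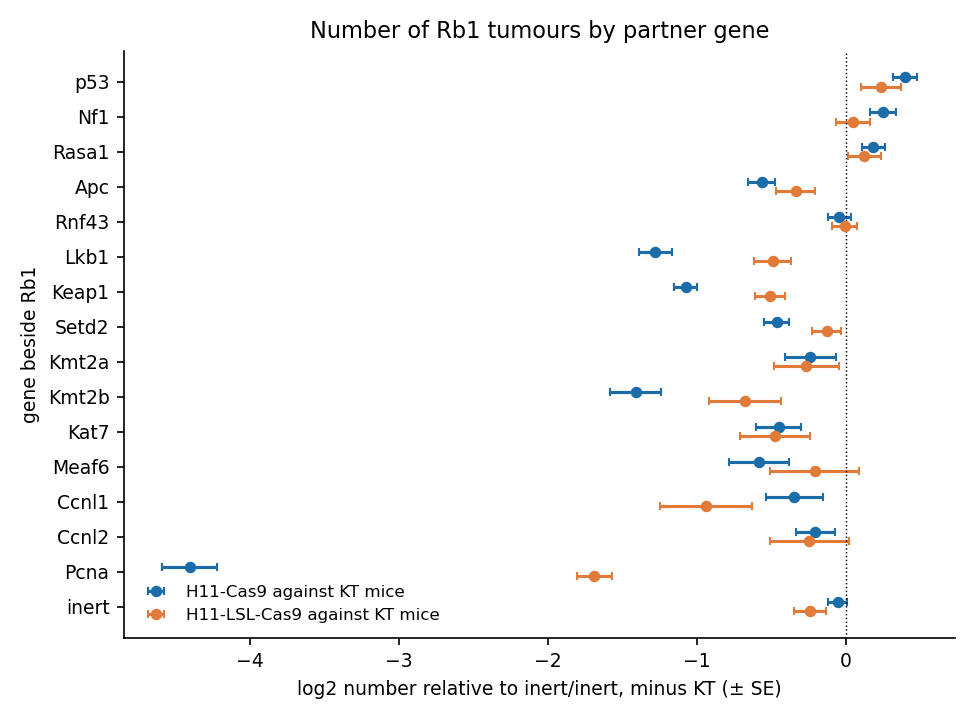
Log2 number of Rb1 tumours relative to inert/inert tumours, Cas9 mice minus KT mice (± SE), by the gene beside Rb1. In H11-Cas9 mice p53, Nf1 and Rasa1 lie above 0 (0.40, 0.25 and 0.19) and Pcna lies at -4.404.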

How the data were processed

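The deposited table gives, per tumour, raw read counts and a signal, the cell number that the authors estimated from spike-in cells. How barcodes were called is not stated in the labels. Groups came from the genotype label.

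Size was log2 cells, averaged per mouse and kind of tumour (at least 5 tumours of each kind, at least 6 mice; single viruses and same-guide viruses at least 1 tumour, untested), and tested over mice by 2-sided sign flips: exact below 10 mice, otherwise 100000 permutations. Number was tested by a studentised permutation of mice against KT (pseudocount 0.5, at least 5 inert/inert tumours). Tests were fitted over all genes and pairs and adjusted by Benjamini-Hochberg within a kind, with calls under 0.05. Errors are SE over mice unless stated. Tests of size for single genes and pairs, of guide differences and of number, rare kinds of tumour left out, were checked on simulated data. Tests of steps, interactions, places and differences in size between groups were not. Python 3.11.15 with numpy 2.4.6 and pandas 2.3.3 was used.

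The members, lists and tests were chosen with earlier results of these data known. The genes named in the text are Rb1, every partner, and the 2 genes most like Rb1 by Pearson r, with every p53/Rb1 virus, a choice of the design and not of the rule that picked the tumours. Results of 1 of 16 partners are not reported here, though it stayed in every fit. Nothing states that mice of a group differ in litter or cage, so p-values measure the spread between these mice. Alternatives were other size minima, the median, the 90th percentile, weights, inert sets, spike-in totals, guide, place, and for number the pseudocount, denominator and each KT mouse left out.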

Additional observations from a re-analysis of the deposited data

Results flagged for a closer look

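Among the 9 KT mice 1 mouse stood apart from the others for Rb1 beside inert, at 0.35 log2 units above inert/inert where the other 8 lay between -0.12 and 0.09. For the interaction of p53 with Rb1 in KT mice 1 mouse lay at 0.37, also apart from the rest. Dixon's 95% critical value, used here, is passed by chance in about 1 in 20 groups.

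H11-LSL-Cas9 minus H11-Cas9 mice differed past the threshold (permutation of mice, 17 or 18 against 45) in the size of p53/Rb1 tumours, at -0.74, in the step for Rb1 added to p53, at -0.54, and in the step for p53 added to Rb1, at -0.55.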

How the results depend on the processing

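No paired analysis was possible because the labels give no replicate numbers that join mice across groups; tumours were compared within each mouse. The size of p53/Rb1 tumours in H11-Cas9 mice stayed above inert/inert and called under every alternative that gave a value, between 0.40 with Rb1_V2 alone and 2.32 at the 90th percentile. The gain of Rb1 beside inert in H11-Cas9 mice lost its call with tumours of at least 500 cells (0.35), the median (0.0489), both Cas9 groups together (0.10), safe guides alone (0.10), the spike-in total near 300000 (0.0379), place 2 alone (0.11) and against KT mice (0.145). In H11-LSL-Cas9 mice this uncalled value changed sign to 0.22 with a minimum size of 200 cells, 0.0075 where 10 tumours of a kind were required, 0.00395 with NE as inert and 0.000516 with same-guide inert viruses kept. In KT mice, also uncalled, it changed sign to -0.0263 (at least 200 cells), -0.0112 (at least 500 cells), -0.0287 (90th percentile), -0.00484 (safe guides alone), -0.0343 (NE as inert), -0.0685 (spike-in total near 300000), -0.00053 (place 1 alone) and -0.0315 (Rb1_V1 alone).

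The number of Rb1 tumours beside inert reversed to 0.37 in H11-Cas9 mice relative to all tumours, and was -0.61 and called in H11-LSL-Cas9 mice with tumours of at least 200 cells. Without each KT mouse in turn it ran from -0.07 to -0.04 in H11-Cas9 mice and from -0.25 to -0.22 in H11-LSL-Cas9 mice, and the pairs lower in number from 7 to 8; relative to all tumours they were 4. The 5 pairs above inert/inert became 1 at 500 cells, 2 with the median, 8 with same-guide inert viruses kept, and 3 with the 90th percentile, safe guides alone, the spike-in total near 300000, either place alone, Rb1_V1 alone or against KT mice. The 1 pair above its partner became 0 with Rb1_V2 alone. The 2 pairs above Rb1 beside inert became 0 at 1000 cells and 1 at 500 cells, with the median, the spike-in total near 300000, place 1 alone or either guide alone. The 4 interactions became 0 at 500 cells and with the median, 2 at 200 cells, the spike-in total near 100000 or Rb1_V2 alone, and 1 with both Cas9 groups, safe guides alone, the spike-in total near 300000, place 2 alone, Rb1_V1 alone or against KT mice. In H11-LSL-Cas9 mice the 0 pairs became 4 at 200 cells and 1 with at least 10 tumours.

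The p53 interaction lost its call at 500 cells (0.57), with the median (0.29), the spike-in total near 100000 (0.31), place 1 alone (0.0366) and without p53 in place 1 and Rb1_V1 in place 2 (0.00427), and reversed to -0.0211 with Rb1_V2 alone. The guide difference beside p53 was 0.18 and uncalled without that arrangement, and beside inert it reversed to -0.0212 at the spike-in total near 100000. Leaving out that arrangement and setting counts of pairs and interactions against KT mice were chosen after seeing the data. Guide and place differences were not run with the median, percentile or weights. The cause of these changes was not tested. Few inert/inert tumours per mouse (medians of 24, 19 and 136 in H11-Cas9, H11-LSL-Cas9 and KT mice) limit the precision.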

Other observations

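Viruses with the same Rb1 guide in both places, left out above, had mean sizes below inert/inert, on few tumours and with no test. Same-guide viruses of other genes or of inert guides were not set beside them, so whether this is particular to Rb1 was not tested. With Rb1_V1 in both places the mean log2 size minus inert/inert was -0.37 ± 0.23 (SE) for 39 tumours in 28 H11-Cas9 mice, 11 of them above 0, -0.85 ± 0.44 for 7 tumours in 6 H11-LSL-Cas9 mice and -0.72 ± 0.19 for 56 tumours in 9 KT mice. With Rb1_V2 it was -0.39 ± 0.20 for 59 tumours in 32 H11-Cas9 mice, -0.63 ± 0.24 for 19 tumours in 11 H11-LSL-Cas9 mice and -0.83 ± 0.14 for 120 tumours in 9 KT mice, where 0 of 9 mice lay above 0.

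Rb1 beside the guide named NE gave 0.19 ± 0.08 in 43 H11-Cas9 mice, -0.01 ± 0.12 in 16 H11-LSL-Cas9 mice and 0.03 ± 0.09 in 9 KT mice (SE, no test), near the values beside inert guides.

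In H11-Cas9 mice 12 of the 13 p53/Rb1 tumours over 100000 cells carried p53 in place 1 and Rb1_V1 in place 2. That arrangement made up 94 of the 117 p53/Rb1 tumours over 10000 cells and 769 of the 2045 of all sizes. In 26 of 45 H11-Cas9 mice its share of tumour cells was above its share of tumours. In H11-LSL-Cas9 mice it made up 8 of 13 over 10000 cells and 202 of 663 of all sizes, and in KT mice 0 of 2 and 586 of 2029.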
